A study of Mus musculus with 15 samples.

Results

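Tumour-infiltrating CD8+ T cells from mice given an antibody to PD-1 were compared with those from mice given an antibody to B7S1, each represented by 1 library. The 2 libraries were chosen by their titles, anti_PD1 and anti_B7S1, and a library titled combo is shown beside most named genes, which makes 3 of the 15 libraries of the series. A library titled Control is given as the background. All 4 came from wild-type C57BL/6 females carrying E.G7, a mouse T cell lymphoma line that makes ovalbumin. The mice received the tumour cells under the skin at 6 to 8 weeks of age, and the infiltrating cells were sorted on day 21, with an age of 9 to 11 weeks in the labels. The treatment is known from the titles alone: the labels give no dose, schedule or control antibody, and no number of mice for these libraries. The sorting protocol names ovalbumin-specific CD8+ cells and fractions of PD-1+ CD8+ cells, without saying which of these the antibody libraries hold.

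PD-1, encoded by Pdcd1, is an inhibitory receptor of activated T cells, and antibodies that block it release part of this restraint. The gene Vtcn1 makes B7S1, or B7-H4, a relative of the PD-1 ligands on tumour and myeloid cells that inhibits T cells through a receptor that is not PD-1. Inside tumours, CD8+ T cells range from stem-like cells, which carry the transcription factor TCF-1 (Tcf7) and the tissue exit receptor S1PR1 (S1pr1), to dividing and terminally differentiated effector cells. Dividing cells switch on replication genes in S phase through E2F factors and mitotic genes in G2 through the CHR element and CCAAT boxes of their promoters. Ccna2, cyclin A2, serves here as a mark of dividing cells.

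The anti_PD1 library was higher in genes of mitosis, DNA replication and several granzymes, and the anti_B7S1 library was higher in genes of stem-like T cells, of T cell homing and of the type I interferon response. Levels are in FPKM, sequenced fragments corrected for transcript length and for the size of the library, and ratios are log2 of anti_PD1 over anti_B7S1 after adding 1 to each value, which understates the ratio of low genes. A positive log2 ratio is higher in anti_PD1. With 1 library a treatment no ratio has a test, and differences between mice and between treatments cannot be told apart. The tables also list housekeeping genes at exactly 0, such as the iron-sulphur scaffold gene Iscu at 0 in anti_B7S1, so a value of 0 is given as listed and no ratio is printed for a single gene against it. Counts of 2-fold genes and list medians do include such genes, through the added 1, and are also given over genes above 0 or at 5 FPKM or more in both libraries where that moves them.

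The promoters of 4 cell cycle genes that were high in anti_PD1 are given as examples of the 2 kinds of element that serve S phase and mitosis. Each run is the 250 bases before the annotated start in RefSeq GRCm38.p6, the mm10 build of the files, written from 5′ to 3′ on the gene's strand. Capitals mark the CHR element (TTTGAA), the CCAAT box and, in Mcm5, the E2F motif (TTTGGCGC), each on either strand, and no marked motif overlaps another. Cks1b, a subunit of the cell cycle kinases, lies downstream of chr3:89418292-89418541 on the minus strand. The window of Ccnb2, cyclin B2, is chr9:70421555-70421804 on the minus strand. That of Ccnb1, cyclin B1, is chr13:100786487-100786736 on the minus strand. Mcm5, a subunit of the replicative helicase, follows chr8:75109259-75109508 on the plus strand, a window that overlaps an annotated form of Mcm5 itself, while the other 3 windows overlap no annotated gene.
Cks1b: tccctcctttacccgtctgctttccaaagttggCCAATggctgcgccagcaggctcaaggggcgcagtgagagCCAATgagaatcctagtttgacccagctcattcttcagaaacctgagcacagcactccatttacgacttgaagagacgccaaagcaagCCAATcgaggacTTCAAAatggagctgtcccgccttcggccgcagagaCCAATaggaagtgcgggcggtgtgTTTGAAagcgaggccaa
Ccnb2: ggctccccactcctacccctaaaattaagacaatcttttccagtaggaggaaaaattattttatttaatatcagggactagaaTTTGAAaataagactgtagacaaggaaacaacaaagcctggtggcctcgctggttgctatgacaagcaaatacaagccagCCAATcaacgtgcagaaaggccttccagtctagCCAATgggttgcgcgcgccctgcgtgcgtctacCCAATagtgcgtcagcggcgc
Ccnb1: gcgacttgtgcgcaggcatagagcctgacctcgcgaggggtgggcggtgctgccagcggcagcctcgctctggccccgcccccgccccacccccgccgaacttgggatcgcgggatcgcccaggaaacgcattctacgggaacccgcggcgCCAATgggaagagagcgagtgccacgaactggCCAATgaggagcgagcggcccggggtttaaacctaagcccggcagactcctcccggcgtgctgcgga
Mcm5: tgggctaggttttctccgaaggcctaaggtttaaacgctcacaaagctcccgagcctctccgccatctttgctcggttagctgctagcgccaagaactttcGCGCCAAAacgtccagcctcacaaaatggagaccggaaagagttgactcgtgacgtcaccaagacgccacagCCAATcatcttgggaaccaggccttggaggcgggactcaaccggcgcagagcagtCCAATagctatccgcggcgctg
Cks1b and Ccnb2 carry both CHR and CCAAT, Ccnb1 carries CCAAT boxes without CHR, and Mcm5 carries the E2F motif beside CCAAT boxes. Mcm5 was picked because it holds the E2F motif, so it is an example only. Among other mitosis genes with large ratios, not shown, Birc5 held none of these motifs in its 250 bases. Cdca3, also not shown, held CCAAT boxes without CHR in the same stretch.

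The same motifs were counted in windows from 250 bases before to 50 after each start. Of 35 windows of 33 mitosis genes, 26 held CHR (74.3%) and 28 held CCAAT (80%), against 17.9% and 37.4% of all 32851 windows of this length. CHR and CCAAT stood together in 24 of the 35 (68.6%), against 6.95% of all windows. Of 31 windows of 26 DNA replication genes, 8 held an E2F motif, TTTGGCGC or TTTCCCGC (25.8%), against 1.56% of all windows. No mitosis window held it, and 3 replication windows held CHR (9.68%). Over all genes at least 2-fold higher in anti_PD1, 13.2% of 2723 windows held CHR and 4.37% held E2F, and over those higher in anti_B7S1 12% and 2.53% of 1934 windows did. Among all 7845 windows of genes compared, 12.6% held CHR, 38.5% CCAAT and 3.43% E2F. A match is a description of the sequence and not evidence of a bound site.

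Of 14710 genes listed once, 8046 reached 5 FPKM in the higher of the 2 libraries and were compared. Of these, 2853 (35.5%) were at least 2-fold higher in anti_PD1, 1921 (23.9%) were at least 2-fold higher in anti_B7S1 and 3272 were neither. These shares are the background against which each gene list is read. Among the genes higher in anti_PD1, 1809 were under 1 FPKM in anti_B7S1 and 1239 were listed there at 0. Among the genes higher in anti_B7S1, 616 were under 1 FPKM in anti_PD1 and 164 were listed at 0. Over the 4714 genes with 5 FPKM or more in both libraries the balance was the other way, 669 higher in anti_PD1 and 920 in anti_B7S1. The median log2 ratio was 0.20 over all genes compared and -0.11 over these 4714. The filter fell between D5Ertd579e at 5 FPKM, the lowest inside, and Cyp2u1 at 4.99, the highest outside.

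**Figure D1:**
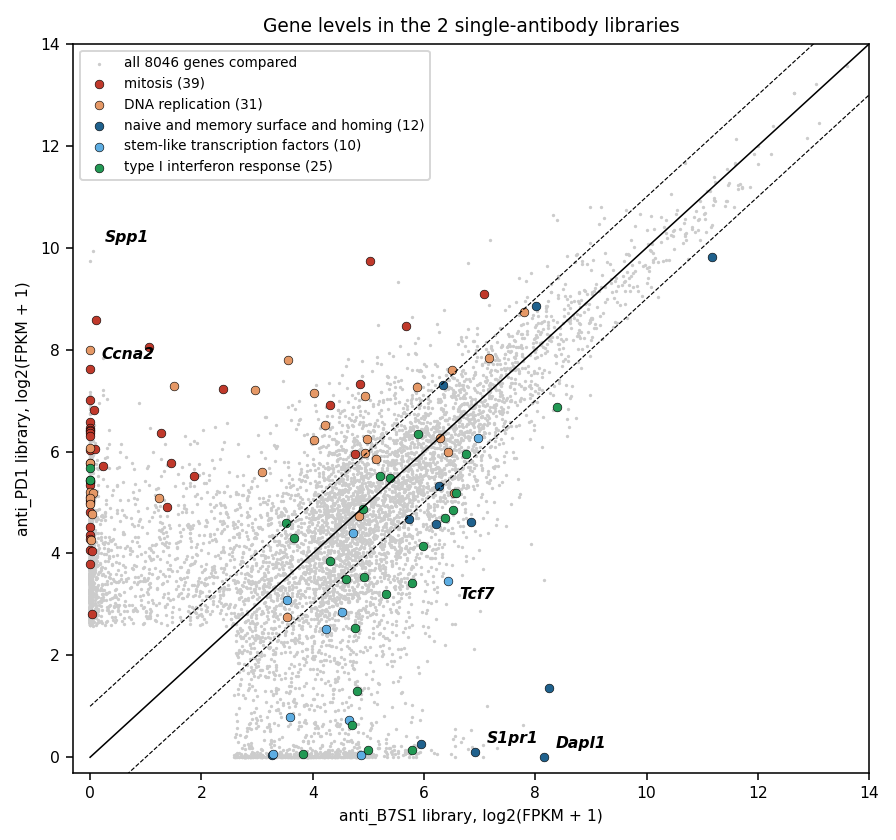
Levels of 8046 genes in the anti_B7S1 library (x axis) and the anti_PD1 library (y axis), both as log2(FPKM + 1), with the line of equal levels and dashed lines at 2-fold. Points in colour are members of 5 gene lists: mitosis and DNA replication genes lie mostly above the upper dashed line, many of them at 0 in anti_B7S1, and homing, stem-like and interferon genes lie mostly below the lower one.

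The libraries differed in how many genes they detected: 2244 genes were listed at 0 in anti_PD1, 4424 in anti_B7S1, 4828 in combo and 6242 in Control. Of 1948 genes at 50 FPKM or more in anti_PD1, 125 (6.42%) were under 1 FPKM in anti_B7S1, and the reverse held for 44 of 1883 (2.34%). Between the 2 wild-type libraries of 1 sorted population elsewhere in the series, that share ran from 0.127% to 1.23%. Those pairs also give a spread between libraries of 1 label: 25.6% of genes differed by 2-fold in the DN population (PD-1+ Tim-3- B7S1R-), 60.2% in TIM-3_SP (Tim-3+) and 63.7% in B7S1R_SP (B7S1R+), against 59.3% between anti_PD1 and anti_B7S1. The paired libraries lie in tables with different gene lists and have differing strain entries in the labels, so they are a description and no error estimate for the antibody libraries. The median size of the log2 ratio was 0.53 in the DN pair, 1.30 in TIM-3_SP and 1.39 in B7S1R_SP, against 1.38 between anti_PD1 and anti_B7S1. A single gene ratio of 2-fold, or well past it, is thus within what same-label libraries showed.

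The T cell identity genes were at similar levels in both libraries. Cd3e, a chain of the T cell receptor complex, was at 308 FPKM in anti_B7S1, 311 in anti_PD1, 312 in combo and 249.6 in Control. Cd8a, the CD8 coreceptor chain, was at 285, 379, 407 and 355 FPKM in the same order. Of 16 identity genes 1 was 2-fold higher in anti_PD1 and 1 in anti_B7S1. The first was Thy1, at 62.2 FPKM in anti_B7S1, 136 in anti_PD1 and 117 in combo. Cd4 was at 0 in anti_B7S1 and 0.21 FPKM in anti_PD1, and Foxp3, the regulatory T cell factor, was listed at 0 in both. The libraries thus carry the markers of CD8+ T cells that their label names.

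Markers of other cell types were uneven between the libraries. Of 15 myeloid markers listed, 5 reached 5 FPKM, and their summed level over the list was 333 FPKM in anti_B7S1, 240.5 in anti_PD1, 206 in combo and 677 in Control, with 9 and 4 markers at 0 in the 2 single-antibody libraries. Cd68, a macrophage lysosomal protein, was at 0.050 FPKM in anti_B7S1, 24.9 in anti_PD1 and 0 in combo. In the same order Itgam was at 0.11, 9.46 and 0.050, and C1qb at 0, 5.55 and 0. Most of the sum in both single-antibody libraries came from Cd74, the invariant chain of MHC class II, and Ctss, cathepsin S. Cd74 was at 208 FPKM in anti_B7S1, 90.4 in anti_PD1 and 80.8 in combo, and Ctss at 124, 106 and 21.4. Both were higher in anti_B7S1 than in anti_PD1 and combo. The macrophage receptor gene Csf1r was at 0.020 and 0.29 FPKM. Lyz2 and Cd14, of monocytes and macrophages, were at 66.7 and 36.4 FPKM in combo, while the single-antibody libraries had at most 0.20 and 0. The 7 B cell markers summed to 0.5 FPKM in anti_B7S1 and in combo and to 14.3 in anti_PD1. Nearly all of the 14.3 was Cd79b at 12.5, which was listed at 0 in combo, with Cd79a listed at 0 in anti_PD1. Of 8 NK cell markers, which CD8+ effector cells share in part, 6 reached 5 FPKM and the sum was 1178 in anti_B7S1 and 1668 in anti_PD1. Most of it was Il2rb, at 1024 FPKM in anti_B7S1, 1305 in anti_PD1 and 1343 in combo. Klrb1c, the NK1.1 receptor, was listed at 0 in anti_B7S1 and combo and was at 19.3 FPKM in anti_PD1. Txk was at 0.11 FPKM in anti_B7S1, 45.1 in anti_PD1 and 3.16 in combo, whereas Gzma ran the other way, at 35.0, 0.13 and 0. The 6 erythroid markers summed to 40.2 FPKM in anti_B7S1 and 0.1 in anti_PD1, and the 7 stromal markers to 2.6 and 1.1, none reaching 5 FPKM. Of 9 CD4 and regulatory T cell markers, 5 reached 5 FPKM, 1 of them 2-fold higher in each library, and the sum was 1333 in anti_B7S1 and 1006 in anti_PD1. The part of these cells in the results below was not tested.

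Mitotic genes had the largest list median, a log2 ratio of 5.04. All 39 mitosis genes that reached 5 FPKM, of 40 listed, were at least 2-fold higher in anti_PD1, against 35.5% of all genes compared. Only 6 of the 39 were at 5 FPKM or more in both libraries. The others passed the filter through anti_PD1 alone, which nearly fixes their direction, so the 35.5% is not a like background for this count. Their median level was 64.1 FPKM in anti_PD1, 72.1 in combo and 0 in both anti_B7S1 and Control. In anti_B7S1 27 of the 39 were under 1 FPKM and in Control 31, against 5 in combo and none in anti_PD1. The level of 33 of them was at least 2-fold higher in both anti_PD1 and combo than in both anti_B7S1 and Control, a pattern shown by 10.9% of all genes compared. In bulk libraries, fewer dividing cells and less of these transcripts per cell cannot be told apart.

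Ccna2, cyclin A2, which drives S phase and entry into mitosis, lies at chr3:36564865-36573038 and was listed at 0 in both Control and anti_B7S1, at 195 FPKM in anti_PD1 and at 232 in combo. Cks1b was at 0.080 FPKM in anti_B7S1, 382 in anti_PD1, 197 in combo and 0 in Control. Birc5, survivin, a subunit of the chromosomal passenger complex, was at 1.08, 264, 161 and 1.03 FPKM in the same order, a log2 ratio of 6.99. The anti_PD1 and combo libraries were high and the anti_B7S1 and Control libraries low for all 3 genes. Ccnb1 was at 0.050 FPKM in anti_B7S1, 112 in anti_PD1, 75.2 in combo and 0 in Control. Ccnb2 was listed at 0 in anti_B7S1 and Control and was at 94.3 FPKM in anti_PD1 and 95.3 in combo. Cdca3, a trigger of mitotic entry, and Kif20a, a kinesin of cytokinesis, were likewise listed at 0 in those libraries and stood at 128 and 86.9 FPKM in anti_PD1 and at 118 and 52.3 in combo. Mki67, the Ki-67 proliferation antigen, had a smaller range, 1.59 FPKM in anti_B7S1, 29.1 in anti_PD1, 6.08 in combo and 0 in Control, a log2 ratio of 3.54. The smallest ratio of the list belonged to Bub1b, a spindle checkpoint kinase, at 25.9 FPKM in anti_B7S1, 61.2 in anti_PD1, 111 in combo and 0 in Control (log2 ratio 1.21).

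Not all of these ratios rest on a value of 0. Over the 18 mitosis genes above 0 in both libraries the median log2 ratio was 4.16, and over the 6 at 5 FPKM or more in both it was 2.53. The other 33 of the 39 passed the filter through anti_PD1 alone, where they were high. Between the 2 libraries of a sorted population the median of this list was -1.53 for the DN pair, -1.999 for the TIM-3_SP pair and 0.31 for the B7S1R_SP pair. The median over all 39 was larger in size than in any of these 3 pairs, but it rests mostly on genes that passed through anti_PD1 alone. Over the 6 genes in both, the 2.53 stands beside a size of 1.999 in the TIM-3_SP pair. In that pair 18 of 29 members were 2-fold higher in library 2 and 5 in library 1, so the list also moved as a block between same-label libraries. These pairs give no error estimate for the antibody libraries.

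DNA replication genes were 2-fold higher in anti_PD1 for 23 of 31 compared (74.2%, against 35.5% of all genes), and 1 was 2-fold higher in anti_B7S1. The median log2 ratio was 2.52. Rrm2, the ribonucleotide reductase subunit that makes deoxynucleotides, was listed at 0 in anti_B7S1 and Control and was at 255 FPKM in anti_PD1 and 82.6 in combo. Mcm5 was at 1.86 FPKM in anti_B7S1, 155 in anti_PD1, 91.7 in combo and 0.28 in Control (log2 ratio 5.77). Gins2, a partner of the same helicase, and Uhrf1, which maintains DNA methylation behind the fork, were listed at 0 in anti_B7S1 and stood at 66.0 and 35.7 FPKM in anti_PD1, with 16.2 and 21.1 in combo and 0 in Control. Each of these 4 genes was high in anti_PD1 and combo and low in the other two libraries. Mcm2, another helicase subunit, went the other way, at 92.3 FPKM in anti_B7S1, 35.5 in anti_PD1, 44.3 in combo and 10.7 in Control (log2 ratio -1.35). Pcna, the sliding clamp, was present in every library, at 222 FPKM in anti_B7S1, 426 in anti_PD1, 122 in combo and 221 in Control. Chaf1b, a histone chaperone subunit, was at 53.6 FPKM in anti_PD1, 43.5 in Control and 0.030 in combo, and listed at 0 in anti_B7S1, so it did not follow the pairing of anti_PD1 with combo. Prim1, the primase subunit, was also listed at 0 in anti_B7S1 alone, with 42.6 FPKM in anti_PD1, 83.4 in combo and 88.1 in Control. The median log2 ratio was 1.77 over the 24 replication genes above 0 in both libraries and 1.09 over the 19 at 5 FPKM or more in both. Between same-label libraries the median of this list was at most 0.82 in size.

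**Figure D2:**
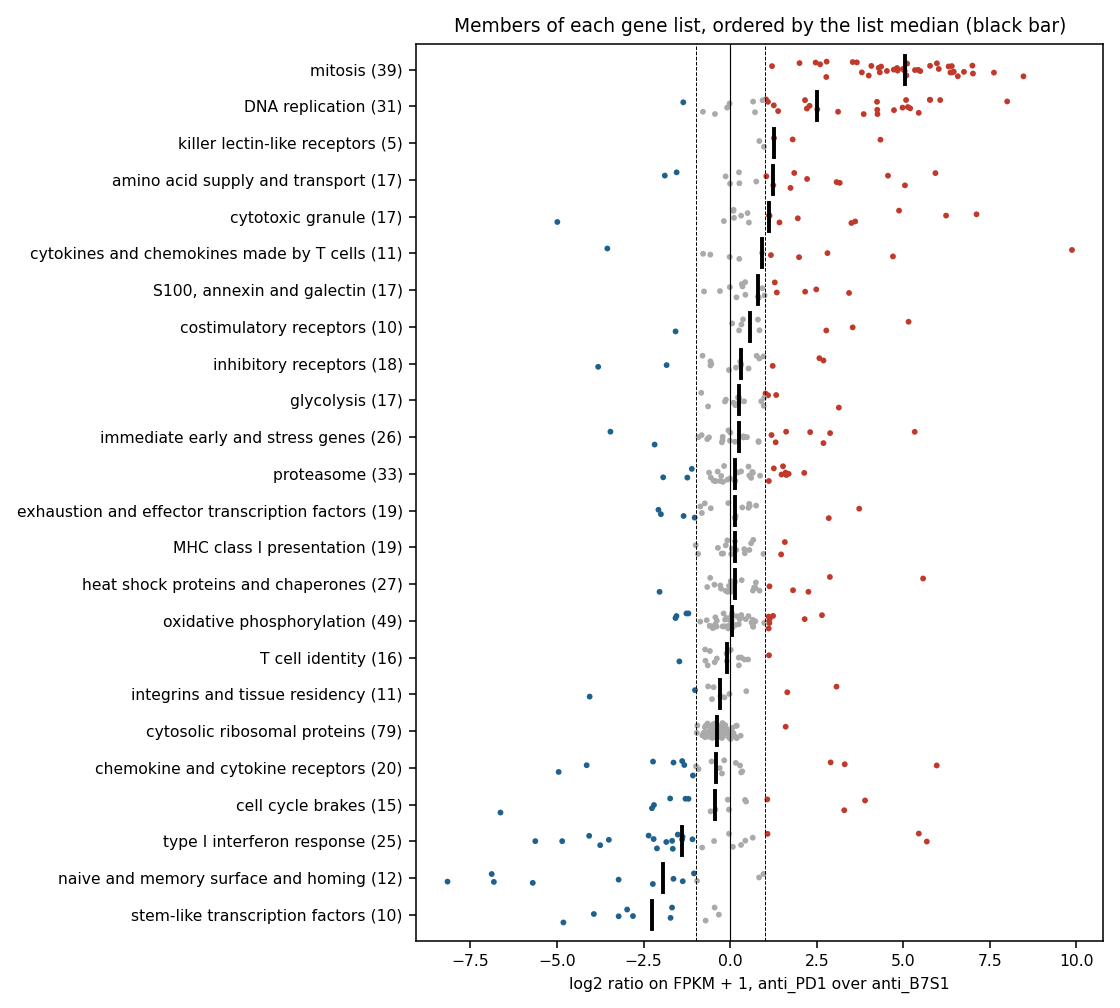
Log2 ratio on FPKM + 1 of anti_PD1 over anti_B7S1 for each member (point) of 24 gene lists, with the number compared in parentheses, the median as a black bar and dashed lines at 2-fold; red points are 2-fold higher in anti_PD1, blue points in anti_B7S1 and grey points neither. All 39 mitosis genes lie to the right (median 5.04), and the stem-like factors have the lowest median (-2.26).

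Genes that hold the cell cycle back were divided. Of 15 compared, 3 were 2-fold higher in anti_PD1 and 6 in anti_B7S1, with a median log2 ratio of -0.42. These are 20% and 40%, against 35.5% and 23.9% of all genes. Tob2, an antiproliferative adaptor, was at 110 FPKM in anti_B7S1, 0.12 in anti_PD1, 46.5 in combo and 69.0 in Control. Btg1, of the same family and a mark of quiescent lymphocytes, was at 379.7, 78.5, 101 and 183 FPKM in the same order. Cdkn1b, the kinase inhibitor p27, was at 22.4 FPKM in anti_B7S1, 9.16 in anti_PD1, 12.5 in combo and 17.1 in Control. These 3 genes were lowest in anti_PD1. Rb1, the retinoblastoma gene, was at 0.010 FPKM in anti_B7S1, 14.02 in anti_PD1, 4.56 in combo and 0 in Control.

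Stem-like transcription factors were higher in anti_B7S1. Of 10 compared, 7 were 2-fold higher there and none in anti_PD1, against 23.9% and 35.5% of all genes, and the median log2 ratio was -2.26. Their median level was 23.1 FPKM in anti_B7S1, 29.2 in Control, 5.43 in anti_PD1 and 0.55 in combo. In 5 of the 10 both anti_B7S1 and Control were at least 2-fold above both anti_PD1 and combo, a pattern of 3.78% of all genes compared. All 10 were above 0 in both single-antibody libraries, but 4 were under 1 FPKM in anti_PD1, and over the 5 at 5 FPKM or more in both the median was -0.71. Between same-label libraries the median of this list was 0.72 in the DN pair, 1.74 in the TIM-3_SP pair and 0.91 in the B7S1R_SP pair.

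Tcf7, at chr11:52246527-52283383, was at 85.2 FPKM in anti_B7S1, 9.96 in anti_PD1, 2.50 in combo and 73.8 in Control, a log2 ratio of -2.98. Between the 2 libraries of each sorted population, DN, TIM-3_SP and B7S1R_SP, its log2 ratio was 0.72, 0.64 and 0.67. In that order, Cks1b differed by -3.56, -2.58 and -3.32 and Spp1 by -1.34, -0.86 and -2.10, more than Tcf7 in every pair. Gzmk differed by 2.09, -0.23 and 2.92, Slamf6 by 0.10, 1.40 and 2.75, and Ccna2 by 0.24, -0.93 and 1.90. These last genes differed more than Tcf7 in some pairs and less in others. Lef1, the partner of Tcf7, was at 28.0 FPKM in anti_B7S1, 0.030 in anti_PD1, 0.020 in combo and 22.3 in Control (log2 ratio -4.82). Id3, the inhibitor of E proteins that marks memory precursors, was at 24.3, 0.65, 0.24 and 59.9 FPKM in the same order. For Tcf7, Lef1 and Id3, anti_B7S1 and Control were high and anti_PD1 and combo low. Myb, which sustains stem-like cells, was at 8.79 FPKM in anti_B7S1, 0.050 in anti_PD1, 0.93 in combo and 3.27 in Control. Klf3, of the same family as the homing regulator Klf2, was at 11.0 FPKM in anti_B7S1, 0.72 in anti_PD1, 0 in combo and 1.25 in Control. Foxo1, which drives Il7r, was at 18.0 FPKM in anti_B7S1, 4.75 in anti_PD1, 0 in combo and 12.3 in Control. Satb1, a chromatin organiser of T cells, did not follow combo, with 21.99 FPKM in anti_B7S1, 6.18 in anti_PD1, 20.9 in combo and 11.0 in Control.

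Surface and homing genes of naive and memory T cells followed the same direction, with a median log2 ratio of -1.94. Of 12 compared, 9 were 2-fold higher in anti_B7S1 (75%, against 23.9% of all genes) and none in anti_PD1. The list median was -1.37 over all 15 listed, with no filter, and -1.04 over the 7 at 5 FPKM or more in both. S1pr1, at chr3:115710433-115715055, encodes the receptor that leads T cells out of tissue and was at 120.2 FPKM in anti_B7S1, 0.070 in anti_PD1, 0.020 in combo and 90.8 in Control, a log2 ratio of -6.82. S1pr4, a related receptor, was at 73.5 FPKM in anti_B7S1, 22.95 in anti_PD1, 0.37 in combo and 47.0 in Control. Both receptors were lowest in combo and next lowest in anti_PD1. Ccr7, the lymph node homing receptor, was abundant in every library, at 2318 FPKM in anti_B7S1, 896 in anti_PD1, 249 in combo and 5452 in Control. Slamf6, a surface mark of stem-like exhausted cells, was at 303 FPKM in anti_B7S1, 1.57 in anti_PD1, 0.090 in combo and 43.4 in Control (log2 ratio -6.89). Il7r, the survival receptor for interleukin 7, was at 114 FPKM in anti_B7S1, 23.4 in anti_PD1, 63.6 in combo and 46.7 in Control, so combo lay between the single antibodies. Dapl1, which is used as a mark of naive and memory CD8+ T cells, was at 286 FPKM in anti_B7S1 and 0.10 in Control and was listed at 0 in anti_PD1 and combo. Between the libraries of same-label pairs this list's median reached 2.59, above its size here. S1pr1 differed by a log2 ratio of 1.89 in the DN pair and did not reach 5 FPKM in the other two pairs.

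**Figure D3:**
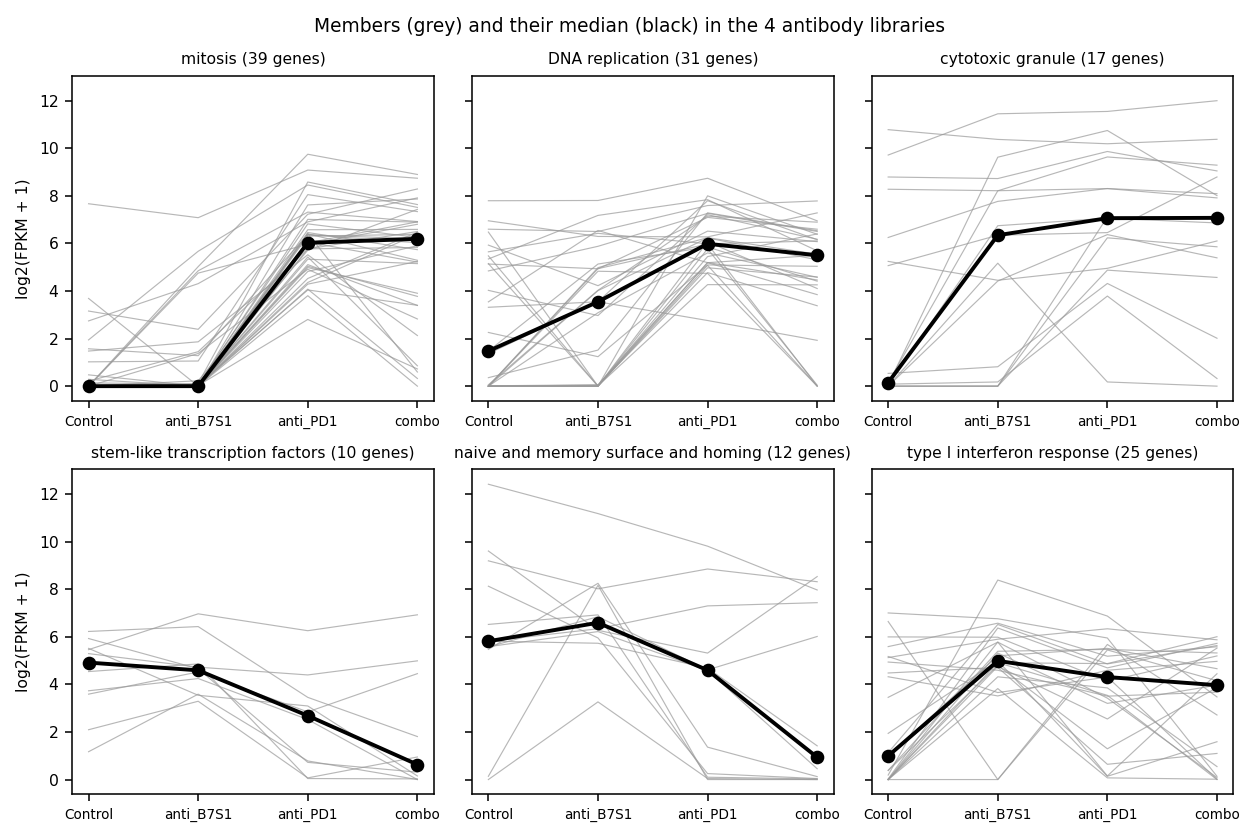
Levels as log2(FPKM + 1) of the members (grey) of 6 gene lists in the 4 antibody libraries, with their median in black; lines join the same gene across libraries that have no order. The mitosis median is at 0 in Control and anti_B7S1 and high in anti_PD1 and combo, and the stem-like and homing medians are lowest in combo and next lowest in anti_PD1.

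Type I interferon response genes were mostly higher in anti_B7S1, 15 of 25 compared (60%, against 23.9% of all genes), with 3 higher in anti_PD1. The median log2 ratio was -1.39, and 14 of the 39 listed were under the filter. Over all 39, with no filter, the median was -0.09. Rtp4, an interferon-induced chaperone, was at 53.9 FPKM in anti_B7S1, 0.11 in anti_PD1, 20.8 in combo and 0 in Control. Irf9, the DNA-binding part of the interferon-activated complex, was at 30.8, 0.10, 2.01 and 2.84 FPKM in the same order. Parp14 was at 25.2 FPKM in anti_B7S1, 0.56 in anti_PD1, 1.14 in combo and 21.3 in Control. Ifih1, the RNA sensor MDA5, was at 13.2 FPKM in anti_B7S1, 0.050 in anti_PD1, 0.010 in combo and 0 in Control. Each of these 4 was above 10 FPKM in anti_B7S1 and under 1 in anti_PD1, while Control and combo did not share 1 order. Gbp2, a guanylate-binding protein that interferon gamma also induces, ran the other way, listed at 0 in anti_B7S1 and Control with 42.6 FPKM in anti_PD1 and 16.8 in combo. Phf11b was at 50.2 FPKM in anti_PD1, 5.56 in combo and 98.9 in Control and was listed at 0 in anti_B7S1. The size of this median was below the 1.84 found between the B7S1R_SP libraries.

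Of 17 cytotoxic granule genes, 9 were 2-fold higher in anti_PD1 (52.9%, against 35.5% of all genes) and 1 in anti_B7S1. The median log2 ratio was 1.12, and 0.52 over the 14 above 0 in both. Gzmk, granzyme K, at chr13:113171630-113180965, was listed at 0 in anti_B7S1 and Control and was at 137 FPKM in anti_PD1 and 134 in combo. Gzme and Gzmd were also listed at 0 in anti_B7S1 and Control, with 74.3 and 28.4 FPKM in anti_PD1 and 57.0 and 22.7 in combo. Gzme, Gzmd and Gzmc, at 0.13 FPKM in anti_B7S1, 12.8 in anti_PD1 and 0.25 in combo, are close paralogs, and how reads were divided among them is uncertain. Gzmf was present in anti_B7S1, at 20.4 FPKM, with 81.7 in anti_PD1, 41.0 in combo and 0 in Control. Gzmb, the main cytotoxic granzyme, was at 788 FPKM in anti_B7S1, 1716 in anti_PD1, 257 in combo and 0.040 in Control (log2 ratio 1.12). Prf1, perforin, was at 295, 793, 624.5 and 0.11 FPKM in the same order (log2 ratio 1.42). Both were near 0 in Control and high in all 3 antibody libraries, and combo was the lowest of these 3 for Gzmb. Gzma ran the other way, at 35.0 FPKM in anti_B7S1, 0.13 in anti_PD1 and 0 in combo and Control. Tnfsf10, the death ligand TRAIL, was at 0.76 FPKM in anti_B7S1, 18.9 in anti_PD1, 3.04 in combo and 0.45 in Control. Between the B7S1R_SP libraries this list's median was 2.20, larger than here.

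Among 11 cytokine and chemokine genes, 5 were 2-fold higher in anti_PD1 (45.5%, against 35.5% of all genes) and 1 in anti_B7S1. The median log2 ratio was 0.92, and between same-label libraries it ran from -0.91 to 1.03. Spp1, osteopontin, a secreted glycoprotein of activated T cells and macrophages at chr5:104435111-104441053, was at 0.040 FPKM in anti_B7S1, 972 in anti_PD1, 2971 in combo and 0.13 in Control, the largest log2 ratio of all genes named here at 9.87. Ccl3, a chemokine of effector cells, was at 43.6 FPKM in anti_B7S1, 176 in anti_PD1, 389 in combo and 2.41 in Control. Tnf was at 12.3, 92.2, 125 and 64.9 FPKM in the same order. All 3 were highest in combo and next in anti_PD1. In combo, where Spp1 was highest, Cd68 and Csf1r were listed at 0 and Lyz2 was at 66.7 FPKM, and their part in the Spp1 level was not tested. Ifng, interferon gamma, differed little, at 216 FPKM in anti_B7S1, 259 in anti_PD1, 142 in combo and 37.8 in Control (log2 ratio 0.26). Xcl1, which draws cross-presenting dendritic cells, was highest in Control at 691 FPKM, with 56.9 in anti_B7S1, 129.8 in anti_PD1 and 37.6 in combo. Lta, lymphotoxin alpha, was listed at 0 in anti_B7S1 with 25.0 FPKM in anti_PD1, and Areg, amphiregulin, was at 10.7 FPKM in anti_B7S1 and listed at 0 in anti_PD1. In combo and Control Lta was at 54.3 and 72.5 FPKM and Areg at 0.050 and 40.4.

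The inhibitory receptors that define exhausted cells did not separate the single antibodies as a list: 3 of 18 were 2-fold higher in anti_PD1, 2 in anti_B7S1, and the median log2 ratio was 0.30. Pdcd1, the target of the first antibody, was at 509.95 FPKM in anti_B7S1, 292 in anti_PD1, 735 in combo and 117 in Control (log2 ratio -0.80). Havcr2, Tim-3, was at 174, 213, 198 and 0.19 FPKM in the same order. Lag3 was at 367 FPKM in anti_B7S1, 624 in anti_PD1, 764 in combo and 334 in Control. Ctla4 was at 710.0 FPKM in anti_B7S1, 487 in anti_PD1, 185 in combo and 83.6 in Control. These 4 receptors differed by less than 2-fold between the single antibodies and were lowest in Control. Among the exceptions, Cd96 was at 40.2 FPKM in anti_B7S1, 244 in anti_PD1, 135 in combo and 129 in Control, and Entpd1, the ectonucleotidase CD39, at 22.9, 5.69, 44.3 and 0 in the same order. Cd101 was listed at 0 in anti_PD1 and Control with 13.1 FPKM in anti_B7S1 and 0.020 in combo. Nt5e, CD73, was listed at 0 in anti_B7S1 and Control with 5.47 FPKM in anti_PD1 and 0.020 in combo, and Vsir, VISTA, was at 12.4 FPKM in anti_B7S1, 30.4 in anti_PD1, 59.6 in combo and 22.7 in Control. Vtcn1, which encodes B7S1, is not listed in the tables of the antibody libraries.

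Exhaustion and effector transcription factors were also divided, with 2 of 19 2-fold higher in anti_PD1 and 4 in anti_B7S1. Tox, the factor that installs the exhausted state, was at 345 FPKM in anti_B7S1, 169 in anti_PD1, 292 in combo and 86.7 in Control (log2 ratio -1.03). Batf, a partner of IRF4 in activated T cells, was at 422 FPKM in anti_B7S1, 99.6 in anti_PD1, 52.0 in combo and 15.9 in Control. Nr4a1, an early target of T cell receptor signals, was at 162, 39.6, 206 and 315 FPKM in the same order, and Irf4 at 20.01, 7.27, 9.68 and 23.1. These 4 factors were lower in anti_PD1 than in anti_B7S1, while combo lay on either side. Irf8 was at 54.3 FPKM in anti_B7S1, 397 in anti_PD1, 248 in combo and 82.2 in Control (log2 ratio 2.85). Eomes, a T-box factor of effector and exhausted cells, was at 0.080 FPKM in anti_B7S1, 13.3 in anti_PD1, 0.21 in combo and 0 in Control.

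Receptors of migration and costimulation had members on each side. Cx3cr1, a mark of effector cells, was at 10.8 FPKM in anti_B7S1, 116 in anti_PD1, 50.7 in combo and 0.11 in Control. Il12rb2, the signalling chain of the interleukin 12 receptor, was listed at 0 in anti_B7S1 and Control and was at 61.4 FPKM in anti_PD1 and 39.2 in combo. Cxcr4 was at 38.7 FPKM in anti_B7S1, 0.28 in anti_PD1, 3.04 in combo and 5.32 in Control, and Ccr2 at 18.1, 0.080, 0.010 and 0 in the same order. Over the 20 chemokine and cytokine receptors compared, 3 were 2-fold higher in anti_PD1 and 7 in anti_B7S1. These are 15% and 35%, against 35.5% and 23.9% of all genes. Cd69, the early activation and retention antigen, was at 23.3 FPKM in anti_B7S1, 203 in anti_PD1, 10.2 in combo and 84.6 in Control, and Itgb7, an integrin chain of gut homing, at 19.2, 0.21, 37.6 and 75.01. Both had combo on the side of anti_B7S1. Crtam, an adhesion receptor of activated CD8+ cells, was at 0.030 FPKM in anti_B7S1, 35.6 in anti_PD1, 25.0 in combo and 1025 in Control. Tnfrsf4, OX40, was at 393 FPKM in anti_B7S1, 131 in anti_PD1, 407 in combo and 331 in Control. Of 10 costimulatory receptors 3 were 2-fold higher in anti_PD1 and 1 in anti_B7S1, and of 11 integrin and residency genes 2 each way. The killer lectin-like receptors had 3 of 5 compared higher in anti_PD1, against 35.5% of all genes. Among the 3 was Klrd1, CD94, at 508 FPKM in anti_B7S1, 1777 in anti_PD1, 1136 in combo and 689 in Control.

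**Figure D4:**
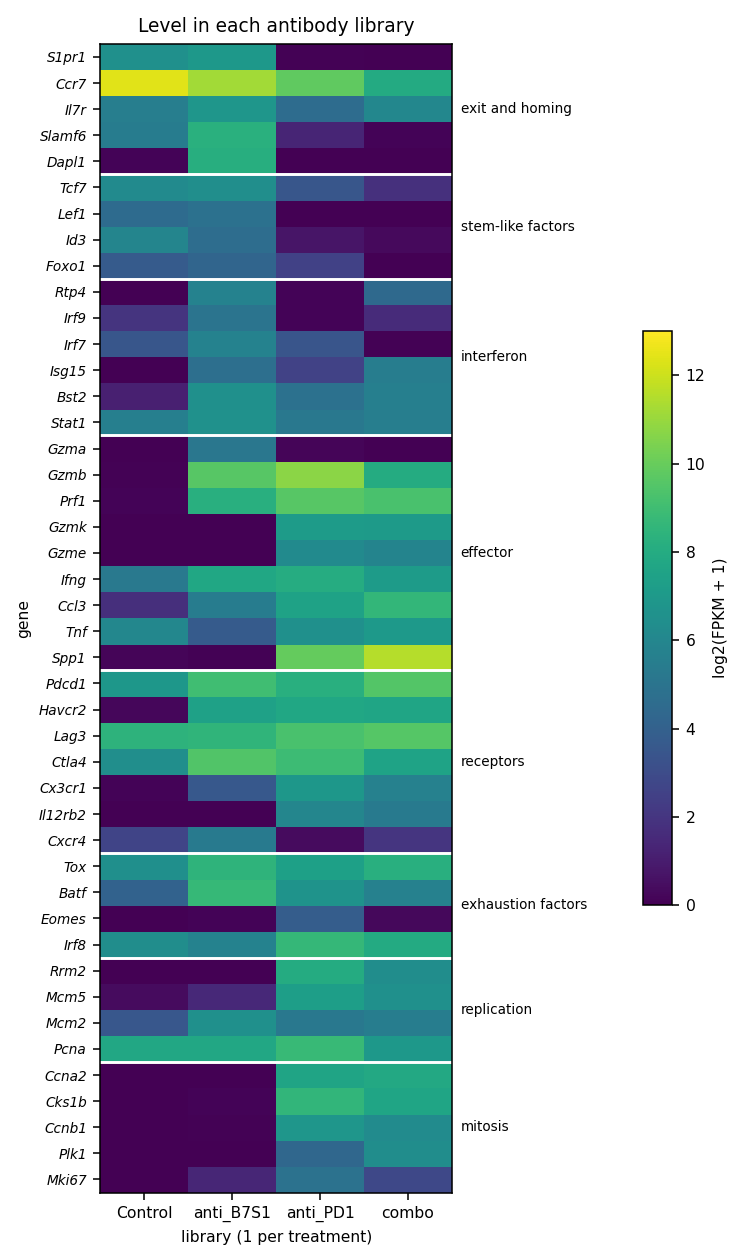
Colour gives log2(FPKM + 1) of single genes (rows) in the 4 antibody libraries (columns, 1 library each), grouped by role at the right. Ccna2, Cks1b, Ccnb1 and Plk1 are dark in Control and anti_B7S1 and bright in anti_PD1 and combo, while Mki67 is also low in combo. S1pr1 and Slamf6 show the reverse. The other exit and homing genes do not: Dapl1 is dark in Control too, Il7r is higher in combo than in Control, and Ccr7 is bright throughout. Pdcd1, Lag3 and Ctla4 are present in every library.

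Metabolic and housekeeping programmes were compared in the same way, against the 35.5% of all genes higher in anti_PD1 and 23.9% higher in anti_B7S1. Only the amino acid supply list (58.8%) was above the first share, and no list here was above the second. Amino acid supply genes were 2-fold higher in anti_PD1 for 10 of 17 and in anti_B7S1 for 2, with a median log2 ratio of 1.25 that was 0.27 over members at 5 FPKM or more in both. Psat1, of serine synthesis, was listed at 0 in anti_B7S1 with 59.8 FPKM in anti_PD1, 27.6 in combo and 36.3 in Control, whereas Phgdh, the first enzyme of the same path, was at 132 FPKM in anti_B7S1, 34.8 in anti_PD1, 126 in combo and 0 in Control. Members of 1 pathway thus stood on different sides. Glycolysis had 4 of 17 higher in anti_PD1 and none in anti_B7S1 (median log2 ratio 0.26), with Eno1, an enolase, at 563 FPKM in anti_B7S1, 1415 in anti_PD1, 685 in combo and 1232 in Control. Oxidative phosphorylation had 8 and 4 of 49 (0.04), the proteasome 8 and 3 of 33 (0.15), heat shock proteins and chaperones 5 and 1 of 27 (0.13) and MHC class I presentation 2 and 0 of 19 (0.14). Of 26 immediate early and stress genes 7 were 2-fold higher in anti_PD1 and 2 in anti_B7S1 (0.26). Dusp2, a phosphatase of activated T cells, was at 34.8 FPKM in anti_B7S1, 231 in anti_PD1, 569 in combo and 186 in Control. Of 79 cytosolic ribosomal proteins 1 was 2-fold higher in anti_PD1 and none in anti_B7S1, with a median of -0.37. Of 17 S100, annexin and galectin genes 5 were higher in anti_PD1 (29.4%, under the share of all genes) and none in anti_B7S1. S100a4, 1 of the 5 and a mark of effector and memory cells, was at 334 FPKM in anti_B7S1, 1501 in anti_PD1, 857 in combo and 3553 in Control.

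The genes with the largest ratios were in part outside these lists. Toward anti_PD1, Serpinb9b, a serpin of the family that inhibits granzymes, was at 857 FPKM in anti_PD1, 391.9 in combo, 153 in Control and listed at 0 in anti_B7S1. Asf1b, a histone chaperone of S phase, was at 120 FPKM in anti_PD1 and 45.7 in combo and listed at 0 in the other two. Lockd, a noncoding transcript beside the p27 gene, was at 199 FPKM in anti_PD1, 129 in combo, 9.34 in Control and 0 in anti_B7S1. Of these, only Asf1b was at 0 in Control as well. Penk, the enkephalin precursor, was at 147 FPKM in anti_PD1, 0.17 in anti_B7S1, 33.6 in combo and 8704 in Control, far above both single antibodies. Ppp4c, a phosphatase subunit that all cells use, was at 143 FPKM in anti_PD1, 196 in combo and 136 in Control and listed at 0 in anti_B7S1, the kind of value that limits what a 0 can show.

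Toward anti_B7S1, Socs3, the feedback inhibitor of interleukin 6 and related signals, was at 92.7 FPKM, against 0.16 in anti_PD1, 0 in combo and 57.2 in Control (log2 ratio -6.34). Ccr6, a chemokine receptor, was at 100.3 FPKM in anti_B7S1, 0.23 in anti_PD1 and 0 in combo and Control. Ifngr2, the second chain of the interferon gamma receptor, was at 114 FPKM in anti_B7S1, 0.44 in anti_PD1, 0.52 in combo and 0.95 in Control. Ccr6 and Ifngr2 were above 1 FPKM in anti_B7S1 alone. Art3, Ninj1 and Serpinc1 were likewise above 88 FPKM in anti_B7S1 and at most 0.15 in anti_PD1 and 0.050 in combo, with Ninj1, a membrane rupture protein, at 4.33 in Control. Dtd1 was at 133 FPKM in anti_B7S1, 0.18 in anti_PD1 and 8.00 in combo. Scamp2, a carrier protein of the secretory path, was at 91.3 FPKM in anti_B7S1, 0.28 in anti_PD1, 92.9 in combo and 0.020 in Control.

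The combo library lay outside the range of the single antibodies for most genes. Of the 2853 genes higher in anti_PD1, combo was nearer anti_PD1 for 1528 (53.6%), and of the 1921 higher in anti_B7S1 it was nearer anti_PD1 for 1236 (64.3%), against 57.1% of all 8046. For 32 of the 39 mitosis genes and 22 of the 31 replication genes combo was nearer anti_PD1, against 53.6% of genes higher in anti_PD1. It was nearer anti_PD1 for 7 of 10 stem-like factors and 9 of 12 homing genes, shares near the 64.3% of genes higher in anti_B7S1, and also for 16 of 20 chemokine and cytokine receptors and 68 of 79 cytosolic ribosomal proteins. Nearer does not mean alike. In these 4 lists combo lay outside the range of the single antibodies for 7, 9, 11 and 75 members, in the same order. Costimulatory receptors had 4 of 10 nearer anti_PD1 and interferon response genes 14 of 25. Over all genes, 64.4% of combo values lay outside the range of the single antibodies. The share was 45.4% among genes higher in anti_PD1 and 58.3% among those higher in anti_B7S1. It was not computed for the other libraries, so it is not read as a trait of combo. How far these positions would move in other mice was not tested, since combo is also 1 library.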

How the data were processed

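The deposited tables give 1 FPKM value per gene symbol and library, made by the authors from RNA of sorted tumour-infiltrating cells amplified with a low-input kit, per the labels' protocols. HISAT2, Bowtie2, RSEM and the build mm10 are named by the submitters' processing notes; the annotation, strandedness and filters are not given in the sources used here. Depth is unknown, so no counting error was computed.

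Ratios were log2 of (FPKM + 1) over genes at 5 FPKM or more in the higher library, computed with Python 3.11.15, numpy 2.4.6 and pandas 2.3.3. One repeated symbol was left out, and 18 symbols were stored as dates. The members and the 30 gene lists (24 programmes, 6 marker lists) were chosen with earlier results of these data known. Named were the markers and a preset panel, the 12 largest ratios each way at 10 FPKM or more, up to 6 members per list by ratio, and marker genes; any other gene, including some in the heat map and the extra lineage markers at 0, was chosen after its values were seen. Libraries numbered 1 and 2 of 3 wild-type sorted populations describe the spread. Promoter windows came from the RefSeq GRCm38.p6 table. Values of some genes the rule selects are not reported here.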

Additional observations from a re-analysis of the deposited data

How the results depend on the processing

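With 1 library a treatment no library could be left out. No paired analysis was possible because each treatment has 1 library. The count of genes 2-fold higher in anti_PD1 was 2853 and in anti_B7S1 1921. At 20 FPKM or more in the higher library these were 1327 and 1197, and with a 4-fold threshold 2181 and 1038. Over genes above 0 in both libraries the anti_PD1 count was 1614, with 1757 for anti_B7S1. Over genes at 5 FPKM or more in both, a setting chosen after seeing the data, they were 669 and 920, and the share of 2-fold genes that were higher in anti_PD1 went from 59.8% to 42.1%. The other pseudocounts, filters and scalings gave 2620 to 3688 and 1616 to 2249. Of 264 alternative values of the 24 list medians, 243 lay within 0.5 log2 units, and of 1690 for named genes 1475 did. Filters leave the ratio of a single gene unchanged, and a pseudocount cannot change its sign. The scalings moved ratios too little to reverse one past 2-fold. That no such ratio changed sign therefore says nothing about stability. Centring on genes at 5 FPKM or more in both moved ratios by 0.11, which brings the T cell identity median from -0.10 to 0.01. The exhaustion factor median was 0.14, and -0.06 at 20 FPKM or more. The interferon median was -1.39, and -0.09 with no filter. The mitosis median ran from 2.53 (5 FPKM or more in both) to 7.81 (pseudocount 0.1).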
